A study of Mus musculus with 4 samples.

Results

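The genes that encode, carry, hold back or release the sterol regulatory element-binding proteins (SREBPs), with 1 gene that moves sterol within the cell, were followed on 4 one-colour arrays of mouse cerebellum: Srebf1, Srebf2, Scap, Insig1, Insig2, Mbtps1, Mbtps2 and Stard4. Every non-control probe whose RefSeq accession belongs to 1 of these 8 genes was taken, which gave 8 genes of the 22911 with a named probe, and 15 of the 56605 probes on the array. Srebf1, Srebf2, Scap and Insig1 had 1 probe each, Mbtps2 and Stard4 had 2, Insig2 had 3 and Mbtps1 had 4. The 2 control samples came from C57BL/6 mice with floxed Derl2 alleles (Derlin-2flox/flox). The 2 knockout (KO) samples came from C57BL/6 mice bred from such animals and from animals whose Cre recombinase is driven by the nestin promoter, a promoter active in neural precursors, so that the deletion is aimed at neurons and macroglia and leaves cells of other origin, such as microglia and blood vessels. All mice were killed at postnatal day 28. The labels name no Cre transgene in the controls, and a group with Cre alone is not analysed here. The labels number the samples within a group and do not say whether each is a separate animal, so the p-values measure only the spread between these samples.

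SREBPs are transcription factors made as membrane proteins of the endoplasmic reticulum (ER). SREBP-2, from Srebf2, mainly drives cholesterol synthesis and uptake, and SREBP-1, from Srebf1, mainly drives fatty acid synthesis. SCAP carries them to the Golgi when sterol is low, and the INSIG proteins hold SCAP in the ER when sterol is high. In the Golgi the site 1 protease (Mbtps1) and the site 2 protease (Mbtps2) cut them in turn and free the part that enters the nucleus. The same 2 proteases free ATF6, a factor that switches on ER chaperones when misfolded protein builds up. Stard4 encodes a soluble carrier that moves sterol between membranes and is itself a target of SREBP-2. The brain makes its own cholesterol, because lipoproteins of the blood do not cross the blood-brain barrier. Derlin-2 belongs to the ER machinery that removes misfolded proteins, and the comparison asks how transcripts of the cerebellum differ when it is lost.

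The SREBPs bind a sterol regulatory element (SRE) beside a CCAAT box in many target promoters, and ATF6 binds an ER stress element in which CCAAT and CCACG stand 9 letters apart. The 250 bases before the transcription start were read from a RefSeq set (GRCm38.p6), which held 12 promoters for 7 of the 8 genes. It held no promoter for Stard4, so that gene was not searched. Both Srebf2 and Insig1 are known targets of the SREBPs and are shown whole, because their differences on the arrays had opposite signs. A window of Hmgcs1, an SREBP-2 target, and one of Hspa5, an ATF6 target, are shown for the looser SRE form and for the whole ER stress element. Capitals mark ATCACCCCA and CCAAT in Srebf2, CCAAT and CACGTG in Insig1, TCACNCCAC in Hmgcs1 and the whole ER stress element, from CCAAT to CCACG, in Hspa5. CCAAT on the other strand reads ATTGG.
Srebf2, chr15:82147019-82147268, plus strand: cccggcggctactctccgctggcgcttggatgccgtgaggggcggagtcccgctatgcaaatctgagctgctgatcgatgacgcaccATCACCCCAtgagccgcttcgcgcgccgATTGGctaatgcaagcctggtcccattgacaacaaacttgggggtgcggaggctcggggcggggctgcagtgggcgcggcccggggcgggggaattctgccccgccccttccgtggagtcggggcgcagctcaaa
Insig1, chr5:28071162-28071411, plus strand: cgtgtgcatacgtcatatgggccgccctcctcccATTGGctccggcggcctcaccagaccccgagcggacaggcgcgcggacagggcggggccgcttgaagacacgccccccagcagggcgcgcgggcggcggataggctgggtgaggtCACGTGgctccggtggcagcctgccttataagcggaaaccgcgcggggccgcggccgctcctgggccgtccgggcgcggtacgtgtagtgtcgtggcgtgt
Hmgcs1, chr13:119690184-119690252, plus strand: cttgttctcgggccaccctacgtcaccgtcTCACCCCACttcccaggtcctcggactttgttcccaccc
Hspa5, chr2:34771995-34772073, plus strand: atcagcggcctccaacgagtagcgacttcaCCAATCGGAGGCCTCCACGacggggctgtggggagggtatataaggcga

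Both strands of all 32851 promoters in the table were searched over the same 250 bases. The SRE form ATCACCCCA was in 0.24% of them and, among the 7 genes, in Srebf2 alone, 163 to 155 bases before the start. With a further C at its end it was in 0.0731% of all promoters and in 0 of the 12 promoters of these genes, and the shorter form was tried after that search. The looser form TCACNCCAC, which overlaps both, was in 1.05% of all promoters and in 0 of the 12. CCAAT was in 33.8% of all promoters and in 5 of the 12 of these genes. They were 2 of 3 for Srebf1, 1 of 3 for Insig2, and the single promoters of Srebf2 and Insig1. The E-box CACGTG was in 6.02% of all promoters and in 2 of the 12, namely 1 of 2 for Scap and the single promoter of Insig1. The ER stress element, which contains CCAAT, was in 0.113% of all promoters, in 0 of the 12, and in those of 6 of the 12 ATF6 targets with an entry. These matches describe letters in a window and are not measured binding.

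Signals are given as log2 of the scanner's processed signal less the 75th percentile of the array, called the log2 level. A probe's level depends on its sequence as well as on its transcript, so levels are compared between arrays and never between probes or genes. The 15 probes were well above background on all 4 arrays, 0 lay where the local background was raised, and 0 spots of the arrays were saturated. Derl2, read as a check of the labels, had log2 levels of 2.13 and 2.20 in the controls and 0.81 and 0.70 in KO on its brighter probe. For the labelled tissue 9 granule cell and 9 Purkinje cell markers were read, all well above background on all 4 arrays. So were all 9 choroid plexus markers and all 4 red blood cell genes measured, so this flag cannot tell tissues apart. The medians of the granule and Purkinje lists differed between KO and control by −0.03 and −0.05. Of the Purkinje cell markers 3 were higher and 6 lower in KO. Among them Car8 stood at 1.02 on KO replicate 1 and between 3.13 and 3.99 on the other 3 arrays. The 9 choroid plexus markers and the 4 red blood cell genes measured were all highest on control replicate 2. The mean log2 level of the choroid plexus markers was 2.16 on that array and between −2.07 and −1.60 on the other 3. The arrays shared 1 slide, on which each group had its own neighbouring positions, so position and group cannot be told apart. Precision is limited by there being 4 arrays.

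Among the 8 genes, Srebf2 and Stard4 had higher signal in both KO samples than in both controls, at 136% and 139% of control on their brightest probes. The other 6 genes, which encode SREBP-1, its escort SCAP, both INSIG anchors and both proteases, had differences between −0.19 and 0.03 on the log2 scale, each with a 95% interval that includes 0. No probe of these genes passed the threshold of the test over the whole array, limma with a Benjamini-Hochberg adjusted p under 0.05, which called 0 of 37516 probes (0.0%). The adjusted p of the 15 probes ran from 0.282 to 0.997. At an unadjusted p under 0.05, 2 of the 8 genes stood apart on their brightest probe, both higher in KO and 0 lower. Of all 16524 genes measured, 8.81% did so, 3.16% with higher and 5.65% with lower signal in KO. That share is for all arrays together. The count and the share over all probes both moved when an array was left out, which leaves 1 sample in a group. The differences then ran from 0.38 to 0.50 for Srebf2 and from 0.38 to 0.57 for Stard4 on its brightest probe. For Srebf1 they ran from −0.47 to 0.09.

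The median difference over the 8 genes was −0.09, against −0.06 over all genes and −0.03 over all probes. The groups did not overlap for 4 of the 8 genes, 2 higher and 2 lower in KO. Over all genes this held for 45.9%, with 13.8% higher and 32.1% lower. The 2 lower genes with separate groups were Scap and Insig2.

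**Figure D1:**
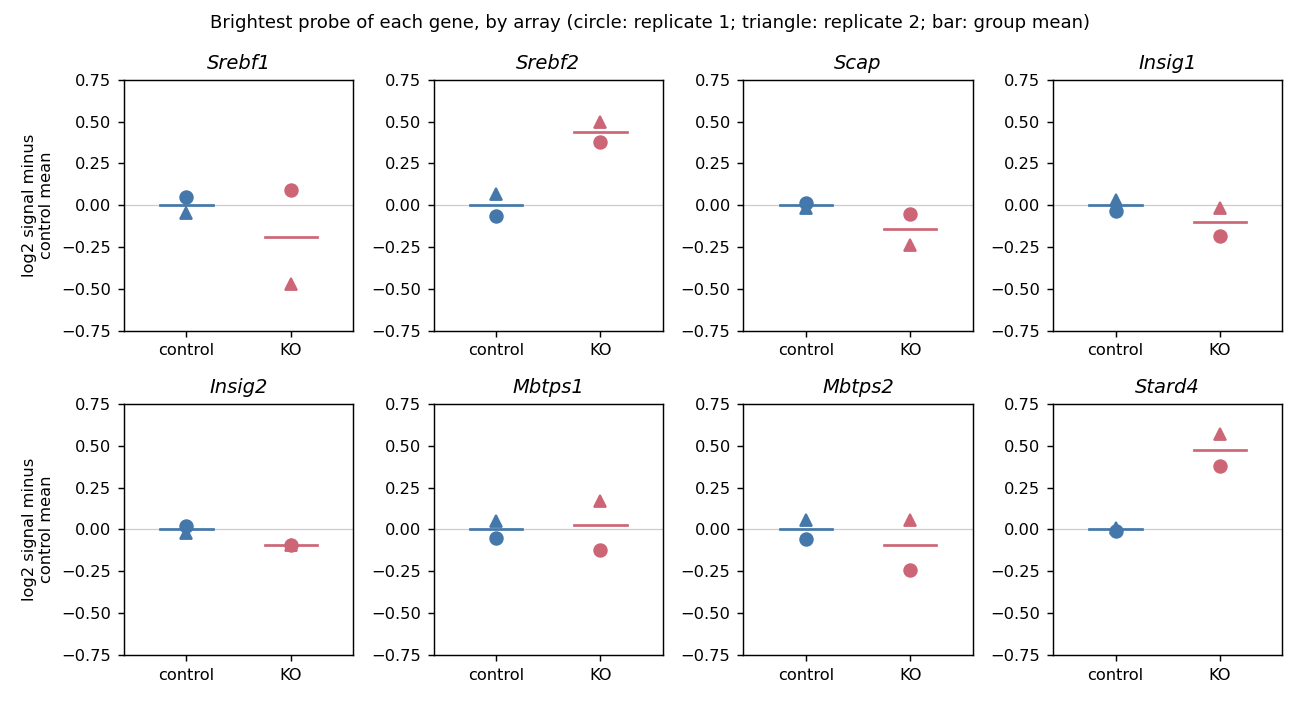
Log2 level of the brightest probe of each gene on each array, less the mean of the 2 controls (y axis, log2); circles are replicate 1, triangles replicate 2 and bars group means. Both KO points of Srebf2 and Stard4 lie above both controls, at 0.38 to 0.57, while the KO points of Srebf1 lie on either side of the controls, at 0.09 and −0.47.

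Srebf2, the gene of the factor that drives cholesterol synthesis, had log2 levels of −1.23 and −1.10 in the controls and −0.79 and −0.67 in KO. Both KO samples stood above both controls, and the gap between the groups was wider than the gap within either. Control averaged −1.17 ± 0.091 (SD, n = 2) and KO averaged −0.73 ± 0.085 (SD, n = 2). That is a log2 difference of 0.44 (SE 0.11; 95% interval 0.13 to 0.75), so that the KO signal was 136% of control. The unadjusted limma p was 0.0152 and the adjusted p was 0.286. Over the settings tried the difference ran from 0.38 to 0.52. The unadjusted p was 0.0913 without control replicate 1 and 0.0616 without KO replicate 2. Srebf2 has 1 probe on the array, so no second probe of the gene can be set beside it. In a bulk sample, a change in the share of cells that express a gene and a change in RNA per cell cannot be told apart.

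Stard4, the sterol carrier, was read by 2 probes that gave different results. On the brighter one, A_52_P384574, the log2 levels were 0.88 and 0.90 in the controls and 1.27 and 1.46 in KO. The controls were almost equal and both KO samples lay above them. Control averaged 0.89 ± 0.014 (SD, n = 2) and KO averaged 1.37 ± 0.132 (SD, n = 2), a log2 difference of 0.47 (SE 0.12; 95% interval 0.16 to 0.79), or 139% of control. The unadjusted limma p was 0.0124 and the adjusted p was 0.282. The unadjusted p was 0.0600 without control replicate 1 and 0.0533 without control replicate 2, and it was 0.0153 and 0.0452 without KO replicate 1 and 2. On the dimmer probe, A_52_P561205, the log2 levels were −4.24 and −4.07 in the controls and −4.05 and −4.22 in KO. These overlap, with a log2 difference of 0.02 (SE 0.13; 95% interval −0.32 to 0.36). This was the dimmest of the 15 probes, and whether so low a signal can show a difference of that size was not tested. When both probes were averaged with equal weight the difference was 0.25 (SE 0.09) with an unadjusted limma p of 0.0520.

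Srebf1, the gene of the factor that drives fatty acid synthesis, had log2 levels of 2.90 and 2.81 in the controls and 2.95 and 2.38 in KO. One KO sample lay above both controls and the other well below them, so the groups overlapped. Its log2 difference was −0.19 (SE 0.22; 95% interval −0.77 to 0.39; limma adjusted p 0.706), with the widest interval among the 15 probes. KO replicate 2 alone set its sign. The difference was 0.09 without that array and −0.47 without KO replicate 1, where the unadjusted limma p was 0.0312. The SDs within the groups were 0.067 in control and 0.398 in KO.

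The plot of each gene by array shows the contrast between the paired factors. Srebf2 stood 0.38 and 0.50 above the control mean on the KO arrays, while Srebf1 differed by 0.56 between the KO arrays. The difference between the 2 genes was not tested.

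Scap, the escort that senses sterol, had log2 levels of 3.91 and 3.88 in the controls and 3.85 and 3.66 in KO. Both KO samples lay below both controls, KO replicate 1 only just. The log2 difference was −0.14 (SE 0.12; 95% interval −0.46 to 0.17; limma adjusted p 0.594), and the KO signal was 90.4% of control. Without KO replicate 2 the difference was −0.05, and without KO replicate 1 it was −0.24.

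Insig1 and Insig2 encode the anchors that hold SCAP in the ER, and Insig1 is also a sensitive target of the SREBPs. Insig1 had log2 levels of −0.82 and −0.75 in the controls and −0.97 and −0.80 in KO. KO replicate 2 lay between the controls, so the groups overlapped. Its log2 difference was −0.10 (SE 0.11; 95% interval −0.41 to 0.21; limma adjusted p 0.705). In percent of control this interval runs from 75.4% to 115%, and that of Srebf2 from 110% to 168%, so the intervals overlap. The difference between these genes was not tested.

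Insig2 was the most tightly measured of the 8 genes. Its brightest probe, A_51_P439452, had log2 levels of 3.09 and 3.05 in the controls and 2.98 and 2.97 in KO. The groups did not overlap, but the log2 difference was small, −0.09 (SE 0.10; 95% interval −0.36 to 0.17; limma adjusted p 0.677). The other 2 probes went the other way. A_55_P2500188 differed by 0.03 with overlapping groups, and A_55_P2616841 by 0.06 with both KO samples above both controls. All 3 intervals lay within −0.36 and 0.33, which is 78.0% to 125% of control.

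The proteases shared by the SREBPs and ATF6 had overlapping groups on all of their probes. Mbtps1, the site 1 protease, had log2 levels of 3.66 and 3.76 in the controls and 3.59 and 3.88 in KO on its brightest probe, A_55_P2047325. The controls lay between the KO samples, and the log2 difference was 0.03 (SE 0.14; 95% interval −0.36 to 0.41; limma adjusted p 0.945). The other 3 Mbtps1 probes, which span a wide range of brightness, differed by −0.0015, −0.02 and 0.04, each with overlapping groups. On all 4 Mbtps1 probes KO replicate 1 was the lower KO sample and KO replicate 2 the higher, by 0.18 to 0.29. Their sign changed with the array left out: without KO replicate 1 the 4 differences were between 0.07 and 0.17, and without KO replicate 2 between −0.12 and −0.05.

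Mbtps2, the site 2 protease, had log2 levels of 1.52 and 1.63 in the controls and 1.33 and 1.63 in KO on its brighter probe. KO replicate 1 was below the controls and KO replicate 2 between them. The log2 difference was −0.09 (SE 0.14; 95% interval −0.48 to 0.30; limma adjusted p 0.787). The dimmer probe differed by −0.05 (SE 0.12; 95% interval −0.36 to 0.27), also with overlapping groups.

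**Figure D2:**
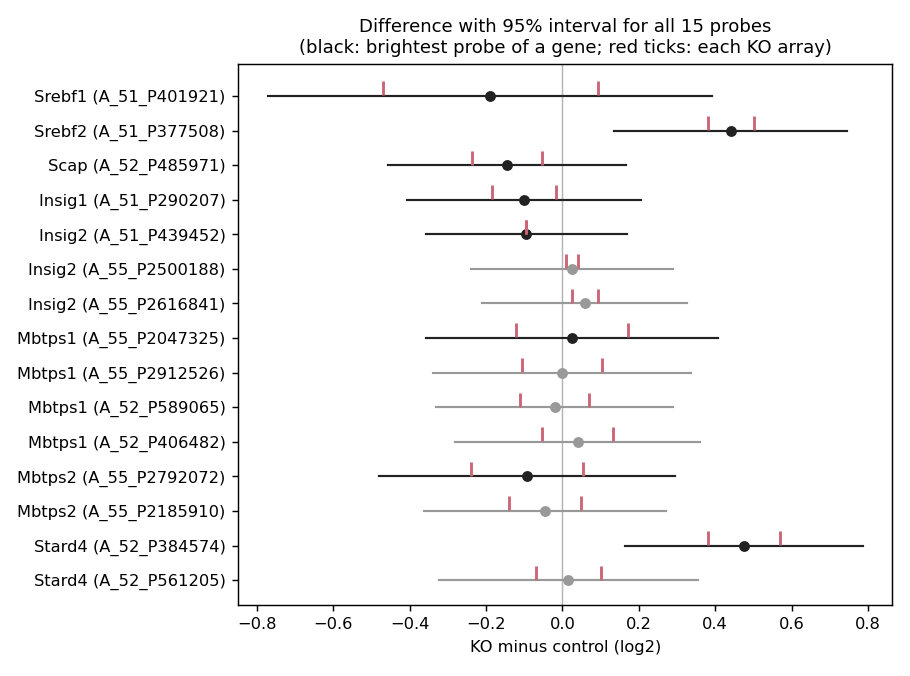
KO minus control difference (x axis, log2) of all 15 probes with its 95% interval; black marks the brightest probe of a gene, grey the others, and red ticks each KO array against the control mean. The intervals of Srebf2 (0.13 to 0.75) and of the brighter Stard4 probe (0.16 to 0.79) lie above 0, and the other 13 include 0.

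Counted by probe, 7 of the 15 were higher and 8 lower in KO, with a median of −0.0015. The groups were separate on 5 probes, 3 higher and 2 lower in KO, against 49.3% of all 37516 probes (22.5% higher and 26.9% lower). Of all probes with separate groups 45.5% were higher in KO, and 68.3% were with spike-in scaling. At an unadjusted limma p under 0.05 there were 2 of 15, both higher in KO, against 14.0% of all probes (8.84% higher and 5.2% lower). The intervals of the 6 genes other than Srebf2 and Stard4 show what could be missed: on their brightest probes the widest, that of Srebf1, runs from 58.6% to 131% of control, and the narrowest, that of Insig2, from 78.0% to 112%.

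The transcripts that SREBP-2 controls were read next, from lists written with earlier results of these arrays known. Of the 8 mevalonate genes measured, 5 were higher and 3 lower in KO, with a median of 0.07 and 0 at an unadjusted p under 0.05. Fdps, farnesyl diphosphate synthase, was higher by 0.21 (SE 0.11), with log2 levels of 3.42 and 3.58 in the controls and 3.74 and 3.68 in KO. Hmgcs1, HMG-CoA synthase, whose promoter window above holds the letters of the looser form, differed by −0.19 (SE 0.11), with 5.04 on both control arrays and 4.78 and 4.92 in KO. This list's median was −0.08 without control replicate 1, with 3 higher and 5 lower, and 0.19 without control replicate 2, with 7 higher and 1 lower. It was 0.04 without KO replicate 1 and 0.03 without KO replicate 2. It was 0.11 with quantile-normalized arrays and 0.15 with spike-in scaling, with 7 higher and 1 lower in each, and 0.02 with normexp. With an intensity trend in the variances 2 of the 8 had an unadjusted limma p under 0.05. In that fit 15.65% of all probes did, and 14.03% without the trend.

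Of the 12 genes from squalene to cholesterol, 5 were higher and 7 lower, with a median of −0.05 and again 0 at an unadjusted p under 0.05. Their differences lay between −0.15 and 0.11. Sc5d and Dhcr7, which act in the last steps, differed by −0.15 (SE 0.10) and −0.15 (SE 0.12), and Lss, lanosterol synthase, by 0.11 (SE 0.10). This list's median was 0.03 when the arrays were scaled to spike-in probes, 0.04 without control replicate 2 and 0.06 without KO replicate 1.

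Sterol uptake and transport, a list of 15 measured genes, held 5 higher and 10 lower, with a median of −0.06 and 0 at an unadjusted p under 0.05. This median was 0.03 after spike-in scaling and 0.04 without KO replicate 1. Npc2, which hands cholesterol over in the lysosome, differed by −0.29 (SE 0.14), Tmem97 by −0.20 (SE 0.15) and Stard3nl, a tether on late endosomes, by −0.18 (SE 0.10). The relatives of Stard4 in this list, Stard3, Stard5 and Stard6, differed by −0.06, 0.01 and −0.03.

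The fatty acid genes driven by SREBP-1 split evenly, 8 higher and 8 lower in KO, with a median of −0.01. That median was 0.05 with quantile-normalized arrays, 0.08 with spike-in scaling, 0.01 without control replicate 2 and 0.0042 without KO replicate 1. Elovl5, a fatty acid elongase, was the 1 gene of 16 at an unadjusted limma p under 0.05 (0.0198, adjusted p 0.299), against 8.81% of all genes. It had log2 levels of 3.01 and 2.94 in the controls and 2.61 and 2.62 in KO, a difference of −0.36 (SE 0.10), and its other probe gave −0.38. The count was 2 with spike-in scaling, an intensity trend in the variances or the replicate number as a block. The shares of all probes were then 15.12%, 15.65% and 16.13%. The count was lower with some arrays left out, which leaves 1 sample in a group. Thrsp differed by −0.40 (SE 0.17). Pnpla3 differed by 0.21 (SE 0.10) on its brightest probe and by −0.32 on another.

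In the list of 10 genes of LXR and sterol efflux, 2 were higher and 8 lower, with a median of −0.07 that became 0.01 after spike-in scaling. At an unadjusted limma p under 0.05 there was 1 of these 10, against 8.81% of all genes. Soat1, which esterifies cholesterol for storage, had log2 levels of −0.14 and −0.11 in the controls and −0.40 and −0.39 in KO. Its difference was −0.27 (SE 0.10; unadjusted limma p 0.0440), and of its 4 probes 3 were lower and 1 higher. It was the 1 gene of the list at that threshold. The count was 2 with an intensity trend in the variances, where the share of all probes was 15.65%. It was 0 with the replicate number as a block, quantile-normalized arrays, spike-in scaling, normexp or no filter on dim probes. The count was also lower with any 1 array left out, where the list's median was between −0.15 and −0.05. Apoe, the main apolipoprotein of the brain, differed by −0.20 (SE 0.10), and Cyp46a1, which turns brain cholesterol into an exportable oxysterol, by −0.16 (SE 0.17) with overlapping groups.

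Of 20 genes that act on SREBP processing, among them ubiquitin ligases, COPII coat genes and the Derlins, 7 were higher and 13 lower, with a median of −0.05. Derl2, the deleted gene, and Derl3 were the 2 of these 20 at an unadjusted limma p under 0.05, against 8.81% of all genes. The count was 3 with spike-in scaling and 4 with normexp or an intensity trend. The shares of all probes were then 15.12%, 13.66% and 15.65%. Derl3, a relative of Derl2, had log2 levels of −2.09 and −1.60 in the controls and −0.23 and −0.49 in KO, a difference of 1.48 (SE 0.21). Rnf139, an ER ubiquitin ligase, differed by −0.28 (SE 0.11), and the groups were separate. The list's median was 0.03 with spike-in scaling and 0.01 without control replicate 2.

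ATF6 needs the same proteases, and its targets were read beside those of the SREBPs. All 14 ATF6 targets were higher in KO, with a median of 0.49, and the groups were separate for 13 of them. Over all genes 13.8% were separate and higher in KO. At an unadjusted limma p under 0.05 there were 6 of 14, against 8.81% of all genes, and after adjustment over the array 0. Over all probes the share was 14.0%, or 15.1% with spike-in scaling, and it also moved with an array left out. The 6 became 4 without KO replicate 1, 11 without KO replicate 2 and 10 with spike-in scaling. Hspa5, the main ER chaperone BiP, had log2 levels of 4.69 and 4.79 in the controls and 5.73 and 5.38 in KO, a difference of 0.82 (SE 0.16; limma adjusted p 0.273). Xbp1, a transcription factor of the unfolded protein response, was higher by 0.70 (SE 0.11), and Pdia6, a disulfide isomerase, by 0.73 (SE 0.15). The list's median was 0.28 without KO replicate 1 and 0.79 without KO replicate 2. Without KO replicate 1, 13 of the 14 were higher in KO and 1 lower. All 14 genes were higher on KO replicate 1 than on KO replicate 2, by a median of 0.37. Srebf2 and the brighter Stard4 probe had the opposite order, with KO replicate 2 the higher by 0.12 and 0.19. The median absolute gap between the KO arrays was 0.16 over probes well above background on all arrays.

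Other substrates of the proteases were read as transcripts too. Of 8 such genes, 3 were higher and 5 lower in KO, with a median of −0.11 and 0 at an unadjusted p under 0.05. Atf6 itself differed by −0.10 (SE 0.11) and Atf6b by −0.16 (SE 0.14), both with overlapping groups. Creb3, made like ATF6 as an ER membrane protein, differed by −0.13 (SE 0.10). Creb3l2 differed by −0.73 (SE 0.51), where control replicate 1 stood at −1.18 and the other 3 arrays between −2.79 and −2.50; 1 of its 4 spots lay where the local background was raised. Creb3l4 differed by −0.35 (SE 0.25) with overlapping groups.

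**Figure D3:**
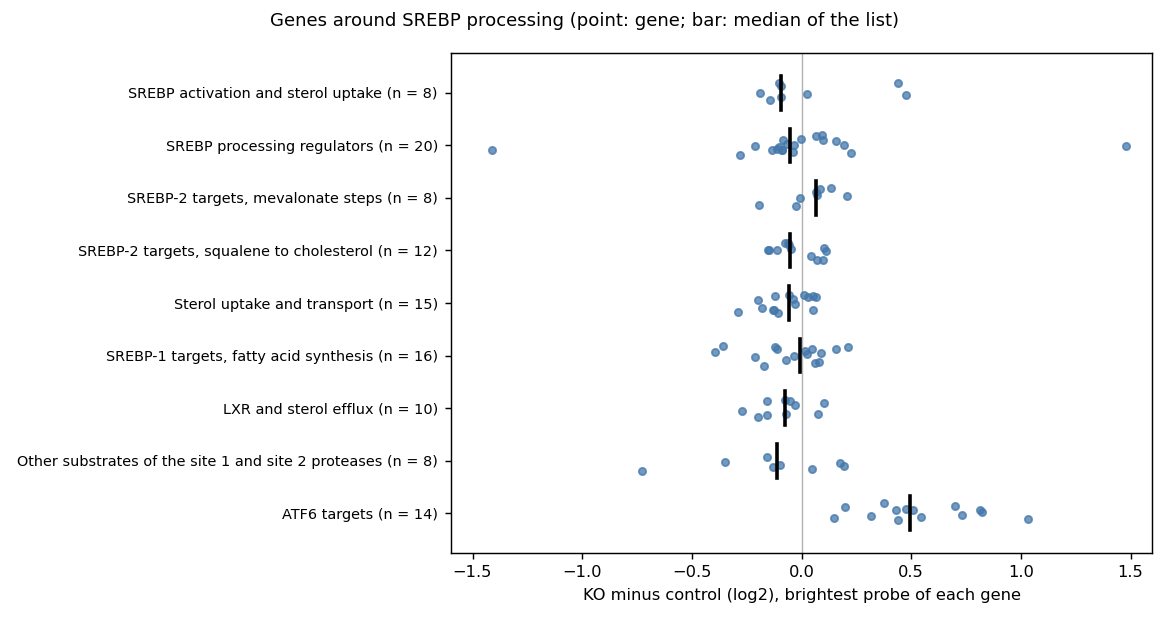
KO minus control difference (x axis, log2) of the brightest probe of each gene in 9 lists; points are genes, spread vertically for legibility, and bars are list medians. The ATF6 targets lie to the right of 0 with a median of 0.49, while the medians of the other 8 lists lie between −0.11 and 0.07 (with spike-in scaling 5 of the medians below 0, of the processing regulators, squalene to cholesterol, uptake, fatty acid and LXR lists, lie above it); Derl2 and Derl3 are the outlying points, at −1.41 and 1.48.

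Likeness of pattern was measured as the distance between the 4 log2 levels of 2 genes after each gene was centred on its own mean, over 110 other genes of these lists. With 4 arrays of 2 groups this is a description only. Srebf2 and Stard4, read on its brighter probe alone, were each other's nearest gene of these lists. Their distance was 0.097, against a median of 0.52 from Srebf2 to all 110. Among all 16523 other genes, 23 were nearer to Srebf2 than Stard4 was. After Stard4, the nearest to Srebf2 were Hsp90b1, an ER chaperone, and Fdps, but 275 and 634 of all genes were nearer to it. Nearest to Stard4 after Srebf2 were Paqr3, which holds SREBP machinery at the Golgi, and Hsp90b1, but 564 and 619 of all genes were nearer. The nearest to Srebf1 were Scap, Npc1 and Fbxw7, but 1220 to 2201 of all genes were nearer to it than these.

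Sterol synthesis genes also differed between the samples of 1 group. All 8 mevalonate genes were higher on control replicate 2 than on control replicate 1, by a median of 0.17. On the KO arrays 4 of these 8 were higher on replicate 2, with a median difference near 0. Of the 12 genes from squalene to cholesterol, 9 were higher on control replicate 2 and 10 were higher on KO replicate 2 than on the other array of their group. Over all genes the shares were 52.0% and 49.5%. Sqle, squalene epoxidase, shows this with log2 levels of 3.32 and 3.62 in the controls and 3.22 and 3.50 in KO. Idi1, an isomerase of the mevalonate route, had 2.56 and 2.92, then 2.57 and 3.04. Insig1 was likewise the higher on replicate 2 of each group, by 0.07 in control and 0.17 in KO.

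Markers of some other cells were lower in KO. Of 11 oligodendrocyte markers measured, 10 were lower in KO, with a median of −0.42. Separate groups, lower in KO, were found for 32.1% of all genes and for 8 of these 11 markers. Their mean log2 level on the control arrays, 3.96 and 3.78, exceeded that on the KO arrays, 3.40 and 3.73. The median was −0.20 without KO replicate 1, with 3 of 11 higher, and −0.59 without KO replicate 2. Ermn, the 1 higher gene, differed by 0.37. All 10 microglia markers were lower, with a median of −0.23, and their mean log2 level on the control arrays, 0.62 and 0.53, exceeded that on the KO arrays, 0.22 and 0.49. Their median was −0.10 without KO replicate 1, with 2 of 10 higher, −0.38 without KO replicate 2 and −0.14 with spike-in scaling. Astrocyte and Bergmann glia markers had a median of −0.08, which was 0.01 after spike-in scaling. Their part in the differences of Srebf2 and Stard4 was not tested. Markers of the choroid plexus were high on control replicate 2 alone. The red blood cell genes had a mean log2 level of 2.62 to 2.75 on the other arrays and 3.32 on control replicate 2. Without that array Srebf2 was higher in KO by 0.50 and Stard4 by 0.48.

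**Figure D4:**
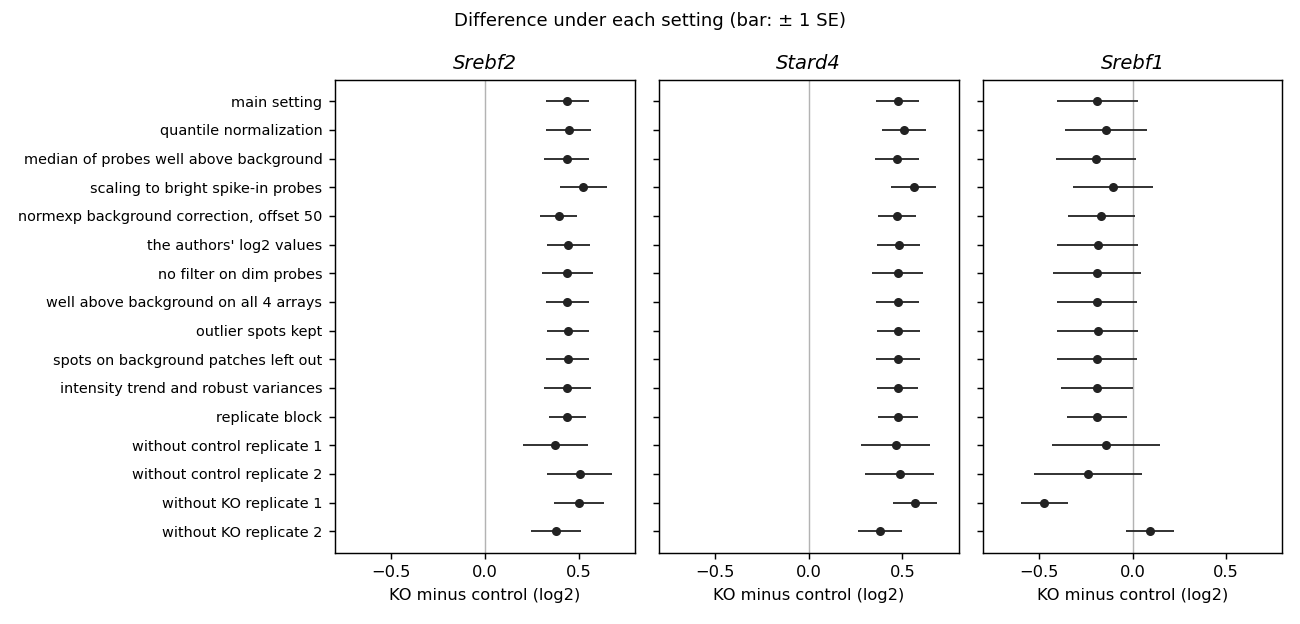
KO minus control difference (x axis, log2) of the brightest probes of Srebf2, Stard4 and Srebf1 under each processing setting and with each array left out; bars are ± 1 SE. Srebf2 stays between 0.38 and 0.52 and Stard4 between 0.38 and 0.57, while Srebf1 moves from −0.47 to 0.09 with the KO array left out.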

How the data were processed

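Cy3-labelled cRNA was made from 150 ng of total RNA per sample, per the labels' protocols. The deposited scanner files hold the processed signal, an intensity background-subtracted and detrended within each array; per the file headers, Agilent's Feature Extraction software was version 12.1.1.1, while the submitters' processing notes name version 10.7.1.1. Other columns of the deposited files are flags and spot types. The authors' deposited value table holds log2 values; over 24825 bright probes, its differences between arrays matched those computed here within 0.01, so scale and direction are known, while the value each probe was centred on is not. Its column medians were 0.0071 and −0.19 in control and −0.16 and −0.22 in KO.

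Spots of the same probe were averaged as log2 processed signal, without outlier spots (65 to 176 per array), and the array's 75th percentile was subtracted. Spots of replicated probes had a median coefficient of variation of 2.84% to 4.19%. Probes well above background on both arrays of a group were kept, 37516 in all. Accessions were named through RefSeq GRCm38.p6, without versions: 32994 of 35886 matched. The KO and control arrays were tested with limma (version 3.58.1, R version 4.3.3) and Benjamini-Hochberg adjustment over all probes, on 4.35 degrees of freedom, which also give the 95% intervals. An exact permutation of 2 against 2 cannot give a share under 33.3%. A gene is represented by its brightest probe.

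In simulated data for the same comparison with 200 of 37516 probes changed, the adjusted threshold recovered 0% of changes of 0.5 or 1 and 77% of changes of 2 on the log2 scale; an unadjusted p under 0.05 found 73.5% of changes of 0.5. Of the unchanged simulated probes 4.85% to 5.20% had an unadjusted limma p under 0.05, against 14.0% of all probes on the arrays. The recovery shares hold for the simulated setting and may differ on the arrays. The members, lists, tests and alternatives were chosen with earlier results of these data known. Named beside the 8 genes are the 3 genes of each list with the smallest p; the others were chosen after their values were seen. Some genes that this rule names are not reported here.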

Additional observations from a re-analysis of the deposited data

How the results depend on the processing

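Under 15 alternatives the 15 probes gave 225 differences, of which 202 kept direction and 0 passed the adjusted threshold; 23 changed sign, all on probes with a small difference or on Srebf1. Srebf2 and the brighter Stard4 probe kept theirs throughout, with adjusted p from 0.206 to 0.703 and from 0.167 to 0.663. The differences of the dimmest probes of Stard4 and Mbtps1, 0.016 and 0.040, were 0.0027 and 0.0040 under normexp.

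The sign changed under spike-in scaling for Mbtps1 (A_52_P589065, 0.064; A_55_P2912526, 0.083) and Mbtps2 (A_55_P2185910, 0.038), under normexp for Insig2 (A_55_P2500188, −0.022) and Mbtps1 (0.017 and 0.026 on the same probes), and for A_55_P2912526 under quantile normalization (0.050), the authors' values (0.0029), outlier spots kept (0.0019) and patch spots left out (2.4e-05). With an array left out, the ranges were −0.054 to 0.13 for A_52_P406482, −0.11 to 0.070 for A_52_P589065, −0.12 to 0.17 for A_55_P2047325, −0.11 to 0.10 for A_55_P2912526, −0.14 to 0.048 for A_55_P2185910, −0.24 to 0.054 for A_55_P2792072, −0.47 to 0.092 for Srebf1 and −0.070 to 0.10 for A_52_P561205.

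The 2 genes at an unadjusted p under 0.05 were 1 with the mean of all probes, and 0 to 3 with an array left out. The median over the 8 genes, −0.094, was −0.0093 after spike-in scaling and −0.037 with the mean of all probes, and −0.10 to 0.018 with an array left out. Probes with an adjusted p under 0.05, 0 as reported, numbered 1 under quantile normalization, the median of bright probes, spike-in scaling and patch spots left out, 2 under normexp, 4 with an intensity trend, and 0 to 98 with an array left out. Separate groups, 18511 probes (45.5% of them higher in KO), ran from 26395 to 29350 with an array left out, since fewer arrays separate more easily; spike-in scaling gave 68.3% higher. That scaling moved the median of all probes from −0.03 to 0.06. The cause of these changes was not tested otherwise.

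Sample numbers are shared between groups without a stated pairing, and the deviations of same-numbered samples correlated at 0.124 over 37516 probes. With the replicate number as a block Srebf2 differed by 0.44 (limma adjusted p 0.272), Stard4 by 0.47 (adjusted p 0.272), and 0 probes passed.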
